A study of Homo sapiens with 6 samples.

Results

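The metallothionein genes MT1 and MT2A were followed in CAL-27, an established human cell line from a squamous carcinoma of the tongue. Members were the 9 genes MT1A, MT1B, MT1E, MT1F, MT1G, MT1H, MT1M, MT1X and MT2A, taken by their symbols from a table of 16809 genes, and each had a row there. The ES-Cu cells had received elesclomol and copper in equal ratio for 24 h (3 libraries), and the control cells were labelled as a normal control without a named agent (3 libraries). Both groups were the same line. No genetic alteration, dose or vehicle was named, and no time was given for the control cells. Elesclomol is a small molecule that binds copper and carries it across membranes, and the series was set up to follow the transcriptome during copper-dependent cell death.

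Metallothioneins are small proteins rich in cysteine that hold zinc, copper and cadmium ions in thiolate clusters. They buffer zinc in resting cells and bind excess copper, which can displace zinc from them. Their transcription depends on MTF1, a zinc-sensing factor that binds metal response elements in their promoters, and these genes are a classical readout of metal load. The human MT1 and MT2A genes lie side by side on chromosome 16, where the RefSeq order is MT2A, MT1E, MT1M, MT1A, MT1B, MT1F, MT1G, MT1H and MT1X, with 5 metallothionein pseudogenes among them. These pseudogenes, and the relatives MT3, MT4 and MT1HL1, were not listed under their symbols in these data, so their levels could not be followed.

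The coding parts of the 9 mRNAs had the same length, 186 bases in GENCODE release 29, and were between 88.7% and 95.2% identical in pairs. The first 50 coding bases, the length of a read in these libraries, are given here for the members the results turn on. They show where these paralogs differ from MT2A over that span. Capitals mark bases that differ from MT2A at the same position counted from the start codon.
MT2A: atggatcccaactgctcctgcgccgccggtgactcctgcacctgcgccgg
MT1E: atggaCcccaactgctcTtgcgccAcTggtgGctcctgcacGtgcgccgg
MT1X: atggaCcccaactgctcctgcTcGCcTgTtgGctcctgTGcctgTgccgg
MT1M: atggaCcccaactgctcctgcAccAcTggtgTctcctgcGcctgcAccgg
MT1F: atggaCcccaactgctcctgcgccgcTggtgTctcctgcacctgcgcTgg
MT1B: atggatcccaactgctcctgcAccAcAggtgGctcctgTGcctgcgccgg
MT1H: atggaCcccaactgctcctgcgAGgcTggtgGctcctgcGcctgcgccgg
These stretches differed from that of MT2A at 6 positions in MT1E, 10 in MT1X, 7 in MT1M, 4 in MT1F, 6 in MT1B and 6 in MT1H.

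Promoter sequence was matched for MT2A, MT1B, MT1H and MT1X in a RefSeq table on GRCh38.p14, and not for MT1A, MT1E, MT1F, MT1G and MT1M. The 250 bases before each gene start are given here because metallothionein promoters are known for metal response elements. Capitals mark matches to the 7-base core of that element, TGCACNC or TGCGCNC, read on either strand.
MT2A (chr16:56608334-56608583, forward strand): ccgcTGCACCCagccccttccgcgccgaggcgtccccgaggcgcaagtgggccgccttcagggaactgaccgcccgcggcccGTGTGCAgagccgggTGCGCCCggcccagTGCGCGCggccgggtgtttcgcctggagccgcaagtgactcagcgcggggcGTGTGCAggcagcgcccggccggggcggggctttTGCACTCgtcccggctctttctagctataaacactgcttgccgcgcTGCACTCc
MT1X (chr16:56682220-56682469, forward strand): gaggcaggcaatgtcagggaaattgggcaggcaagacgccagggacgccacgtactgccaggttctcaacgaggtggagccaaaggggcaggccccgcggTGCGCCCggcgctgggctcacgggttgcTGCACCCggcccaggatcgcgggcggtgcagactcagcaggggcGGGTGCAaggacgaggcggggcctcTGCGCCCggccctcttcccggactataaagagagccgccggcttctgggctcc
MT1B (chr16:56651636-56651885, forward strand): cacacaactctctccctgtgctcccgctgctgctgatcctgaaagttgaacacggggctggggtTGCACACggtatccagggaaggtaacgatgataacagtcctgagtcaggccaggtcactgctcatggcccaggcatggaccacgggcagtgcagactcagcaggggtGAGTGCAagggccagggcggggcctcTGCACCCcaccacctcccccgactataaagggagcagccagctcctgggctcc
MT1H (chr16:56669564-56669813, forward strand): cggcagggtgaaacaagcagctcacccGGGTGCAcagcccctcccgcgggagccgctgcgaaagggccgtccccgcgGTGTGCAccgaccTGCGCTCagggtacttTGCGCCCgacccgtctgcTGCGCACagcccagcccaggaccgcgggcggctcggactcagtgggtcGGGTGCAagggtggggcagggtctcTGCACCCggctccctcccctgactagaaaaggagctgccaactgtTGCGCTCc

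MT1H held 8 matches, MT2A 7, MT1X 4 and MT1B 3. Among 35116 RefSeq promoters cut to the same 250 bases, 24.8% held at least 1 match, 1.58% at least 3, 0.370% at least 4, 0.0313% at least 7 and 0.0171% at least 8. MT1X, MT1B and MT1H shared a forward match that began at position -53 from the gene start, and MT2A had one at -54. A match is a description of the letters and does not show that MTF1 bound there. MT1H, with the most matches, was the lowest of these 4 genes in ES-Cu. MT2A, MT1X and MT1B, with 7, 4 and 3 matches, stood in that order of level. Whether the number of matches bears on the level was not tested.

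**Figure D1:**
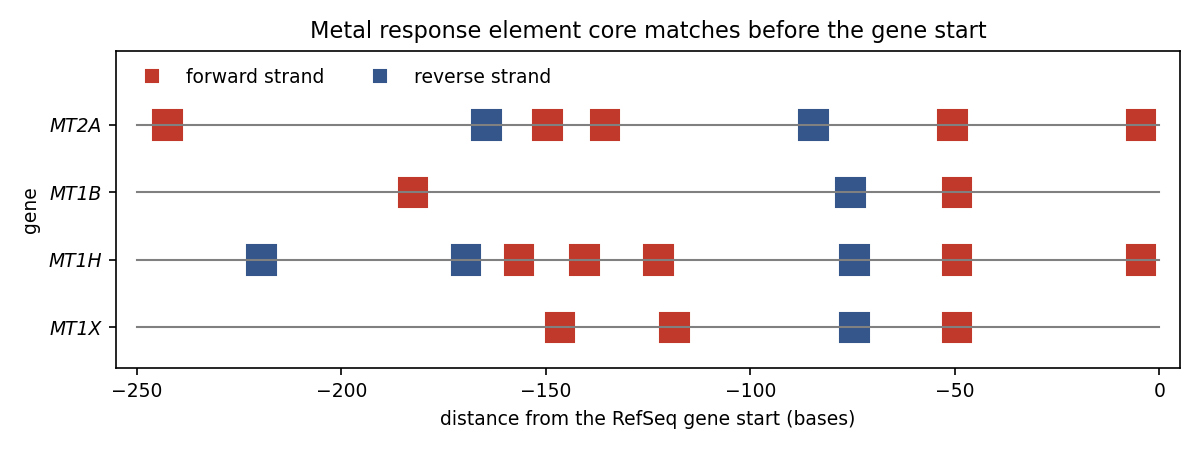
Matches to the metal response element core (boxes, coloured by strand) along the 250 bases before the RefSeq gene start of MT2A, MT1B, MT1H and MT1X; the x axis is the distance from that start in bases. MT2A holds 7 matches, MT1B 3, MT1H 8 and MT1X 4, and each promoter has a forward match that begins at -53 or -54.

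The unit is TPM, a gene's share of all transcripts corrected for its length and scaled to a fixed total per library. Levels can be compared between paralogs only as far as reads were assigned to the right paralog, which was not tested. Read totals are not kept in TPM, so the depth of each library is unknown. Across genes, which are not independent replicates, log2 values of libraries of the same group had Pearson's r of 0.996 to 0.997, against 0.964 to 0.966 for libraries of different groups. Of 6 squamous epithelial markers, KRT5 stood at 853 ± 21.6 TPM in ES-Cu and 853 ± 22.8 TPM in control, and the basal keratin KRT14 was low, at 4.19 ± 1.10 and 4.73 ± 0.440 TPM (mean ± SD, n = 3 per group here and below). TP63 and CDH1 fell, with log2 differences of -1.78 and -1.27, and KRT6A rose by 0.43. KRT17 had a log2 difference of -0.41 as deposited and 0.15 after the median scaling described below, under which KRT5 had 0.56. The 6 markers summed to 1456 to 1495 TPM in ES-Cu and 1638 to 1703 TPM in control. Of the markers of other cell types, the summed level of 3 fibroblast genes was 3.57 to 4.24 TPM in ES-Cu and 8.65 to 9.34 TPM in control. The 3 endothelial genes summed to 1.28 to 1.87 TPM in ES-Cu and 7.14 to 7.47 TPM in control, nearly all of it CDH5. The leukocyte gene PTPRC was at or below 0.04 TPM in every library, and CD68 averaged 50.9 TPM in ES-Cu and 63.6 TPM in control. Their part in the results was not tested. Nothing in the labels tells whether the 3 libraries of a group are separate cultures. The p-values therefore cover the variation among these libraries only, and that may be technical. In RNA of whole cultures, fewer cells of a kind and less RNA per cell cannot be told apart.

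Metallothionein mRNAs made up 7.27%, 8.15% and 7.94% of all TPM in the ES-Cu libraries, against 2.04%, 1.93% and 1.86% in the control libraries. The summed level of the 9 genes was 77886 ± 4608 TPM in ES-Cu and 19436 ± 927 TPM in control, a ratio of means of 4.01. The lowest ES-Cu library lay far above the highest control library. No p-value is given for this sum, since the genes were chosen with results known. MT2A gave 47.1% of the gain in the sum, MT1E 33.1% and MT1X 17.3%, and the other 6 genes together went up to 1470 ± 164 TPM in ES-Cu, against 17.9 ± 2.90 TPM in control.

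**Figure D2:**
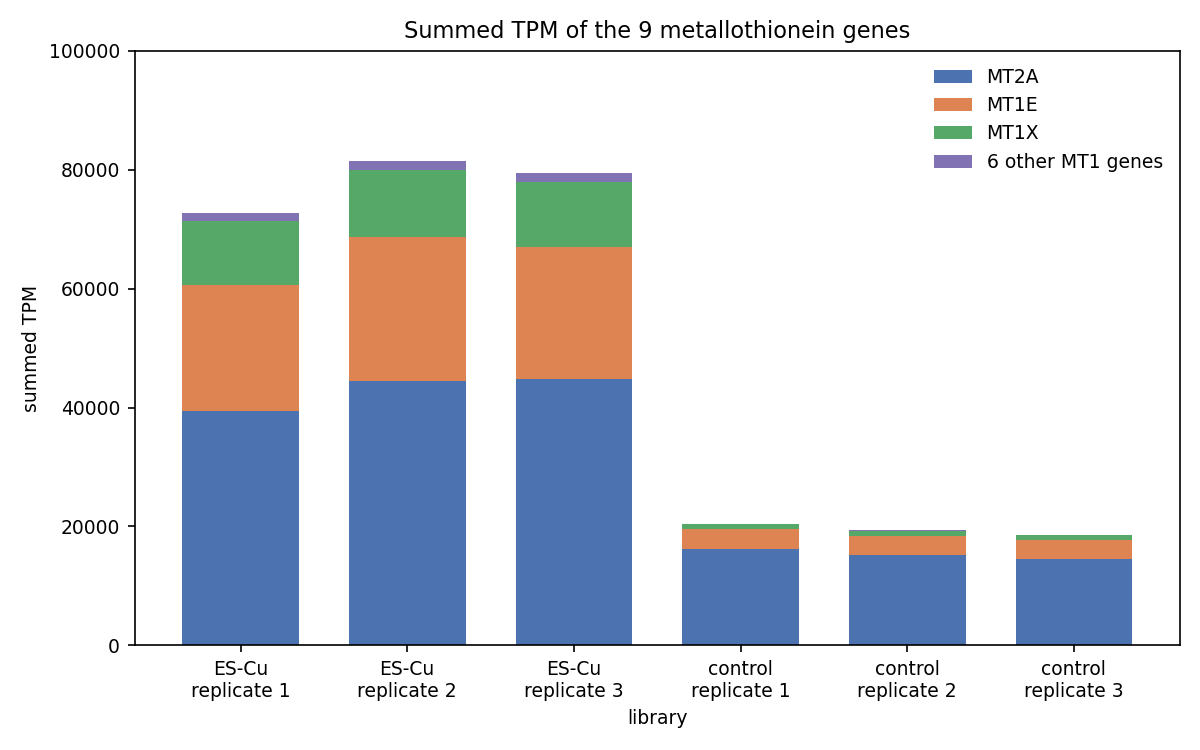
Summed TPM of the 9 metallothionein genes in each library (bars, x axis), split into MT2A, MT1E, MT1X and the 6 other MT1 genes. The ES-Cu libraries sit between 72704 and 81523 TPM and the control libraries between 18575 and 20416 TPM, and MT2A is the largest block in each.

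Of the 9 members, 8 averaged at least 1 TPM across all 6 libraries and were tested. MT1B, MT1G and MT1H passed that filter only through their ES-Cu values and therefore had to differ, so they are described by their levels and are not counted as support. The other 5, MT2A, MT1E, MT1X, MT1F and MT1M, would have passed it in control alone, and all 5 were called higher in ES-Cu. In the same fit 13.6% of the 11927 genes tested were called higher, 70.0% were called lower and 83.7% were called in either direction. Groups did not overlap, with every ES-Cu library on top, for 14.0% of genes tested, and for each of these 5. Folds below are ratios of mean TPM, and differences are on the log2(TPM + 1) scale with their standard error (SE) from limma with a mean-variance trend, which also gave the adjusted p (Benjamini-Hochberg over all genes tested).

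MT2A, the main metallothionein of most human tissues, was the most abundant gene of the table in all 6 libraries. It had 39330, 44503 and 44793 TPM in ES-Cu, against 16253, 15225 and 14582 TPM in control. All ES-Cu libraries were above all control libraries, with replicate 1 the lowest of the ES-Cu group and the highest of the control group. The ratio of means was 2.79 and the log2 difference 1.48 (SE 0.0583, limma adjusted p = 3.48e-09). This was the smallest relative rise among the 5 members with a control signal, while the gain of MT2A in TPM was the largest of the family.

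MT1E encodes a type 1 isoform, and its mRNA was second to MT2A in both groups. It had 21328, 24151 and 22239 TPM in ES-Cu, against 3292, 3212 and 3145 TPM in control. The control libraries lay close together and far below ES-Cu. The ratio of means was 7.02 and the log2 difference 2.81 (SE 0.0475, limma adjusted p = 4.14e-12). By level, MT1E was the second gene of the whole table in each ES-Cu library and ranked 43 or 44 in control.

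MT1X, another type 1 isoform, had 10752, 11251 and 10902 TPM in ES-Cu, against 854, 864 and 826 TPM in control. Its libraries lay close together, with a coefficient of variation of 2.33% in each group. The ratio of means was 12.9 and the log2 difference 3.69 (SE 0.0359, limma adjusted p = 3.05e-14). Its rank by level was 6 in every ES-Cu library and 156 to 160 in control.

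MT1F, a type 1 isoform that was low in control, had 224, 256 and 258 TPM in ES-Cu, against 16.4, 8.09 and 15.6 TPM in control. Control replicate 2 was lower than the other control libraries, and no control value came near the ES-Cu group. The ratio of means was 18.4 and the log2 difference 4.16 (SE 0.193, limma adjusted p = 9.79e-09).

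MT1M, the type 1 isoform with the largest ratio among the 5 members with a control signal, had 816, 1008 and 973 TPM in ES-Cu, against 1.34, 7.06 and 5.33 TPM in control. Its control values were scattered, with a coefficient of variation of 64.1% against 11.0% in ES-Cu, so the ratio of means, 204, rests on a small and uncertain denominator. The log2 difference was 7.56 with a 95% interval of 6.81 to 8.31 (limma adjusted p = 7.97e-09), and it ranged from 7.02 to 7.92 when libraries were left out in turn. By that difference MT1M stood at place 3 of all genes tested.

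MT1B, MT1H, MT1G and MT1A were listed at 0 in every control library, so no ratio is given for them. MT1B had 201, 266 and 192 TPM in ES-Cu, where it overlapped MT1F. MT1H had 46.5, 71.7 and 63.7 TPM in ES-Cu. MT1G, which is high in normal liver, kidney and thyroid, had 4.09, 15.9 and 10.7 TPM, a coefficient of variation of 57.9%. MT1A stood at 1.11 TPM in ES-Cu replicate 1 and at 0 in the other ES-Cu libraries, and it was too low to be tested. In these 4 genes the ES-Cu values therefore ran from 266 TPM in MT1B down to a single library above 0 in MT1A.

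**Figure D3:**
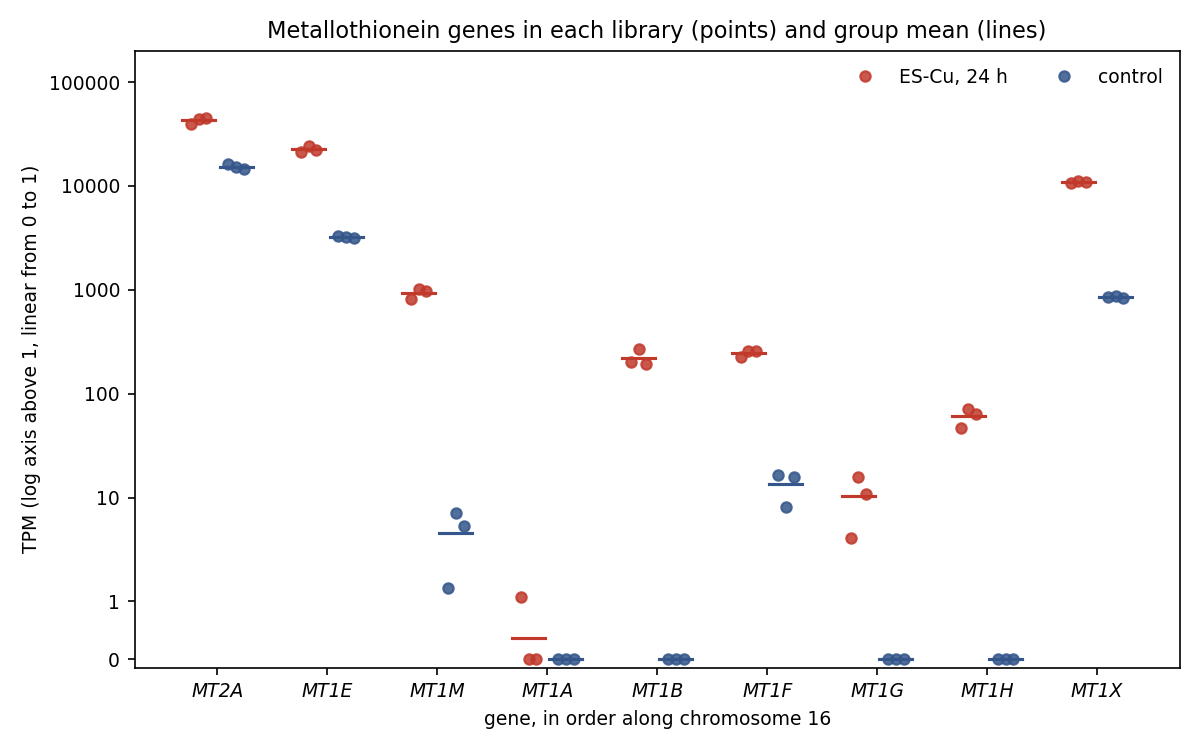
TPM of each metallothionein gene in each library (points) with the group mean (lines), ES-Cu left of control within each gene; the y axis is logarithmic above 1 TPM and linear from 0 to 1, and genes are in their order along chromosome 16. MT2A, MT1E and MT1X are high in both groups, MT1F and MT1M are low in control, and MT1A, MT1B, MT1G and MT1H are at 0 in control.

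In ES-Cu the order of levels was MT2A, MT1E, MT1X, MT1M, then MT1F and MT1B, whose libraries overlapped, then MT1H, MT1G and MT1A. In control it was MT2A, MT1E, MT1X, MT1F and MT1M, with no overlap between neighbours, above the 4 genes at 0. The order of the top genes was thus the same, while MT1M stood above MT1F in ES-Cu and below it in control. The gap in control was small, with MT1F at 8.09 TPM and MT1M at 7.06 TPM in control replicate 2. The highest genes of the family sit at the ends of the cluster, MT2A and MT1E at one end and MT1X at the other, with the genes at 0 in control between them. ES-Cu replicate 1 was the lowest ES-Cu library for 7 of the 9 genes.

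The rise was uneven among the paralogs, and the make-up of the family shifted from MT2A towards MT1 mRNAs. MT2A made up 54.1%, 54.6% and 56.4% of the summed TPM in ES-Cu, against 79.6%, 78.8% and 78.5% in control. MT1E made up 29.3%, 29.6% and 28.0% of the sum in ES-Cu, against 16.1%, 16.6% and 16.9% in control, and MT1X 14.1% ± 0.593 in ES-Cu and 4.37% ± 0.163 in control. For the 5 members with a control signal, the shares of the libraries did not overlap between groups. Relative to MT2A, the 8 MT1 genes together had 0.849, 0.832 and 0.773 of its TPM in ES-Cu, against 0.256, 0.269 and 0.274 in control. Multiplying a library by a constant leaves these shares as they are, but quantile normalization does not. The difference in share, ES-Cu minus control, was -24.0 percentage points for MT2A, 12.4 for MT1E and 0.247 for MT1F as deposited, and -37.8, 21.0 and 0.449 under quantile normalization. Quantile normalization gives MT2A, the top gene of every library, the same value in all, so its share falls there whenever the other members rise. The larger differences under it are therefore not a second measure of the shift. Each of the 5 shares gave p = 0.1 in an exact two-sided permutation test, the smallest that 3 against 3 libraries allow, and an adjusted p of 0.113 over the exact tests of all 9 members. The shift therefore did not pass the threshold and could not have.

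Reads of 50 bases can fit more than 1 paralog, and how the authors assigned such reads was not given in the sources used here. In GENCODE release 29, which may not be the annotation they used, 4.89% of the 50-base stretches of the MT2A mRNA, 5.34% of those of MT1E, 7.05% of MT1M, 5.76% of MT1A and 3.59% of MT1F occurred unchanged in another metallothionein gene or pseudogene. It was 64 of 401 stretches for MT1X, 20.2% for MT1G, 20.4% for MT1H and 0 of 331 stretches for MT1B. Allowing 2 mismatches, the shares ran from 10.6% in MT1F and 12.1% in MT1B to 39.5% in MT1G and 47.4% in MT1H. In control, where MT2A and MT1E stood at 15354 ± 843 and 3216 ± 73.6 TPM, MT1A, MT1B, MT1G and MT1H were listed at 0. Stretches of MT1X and MT1B were also shared with unnamed gene models, which brought the total to 45.1% and 21.8%. Whether these models overlap MT1X and MT1B or are further metallothionein copies was not tested. How far shared reads moved the value of any paralog was not tested, and the paralog values are uncertain to that extent.

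**Figure D4:**
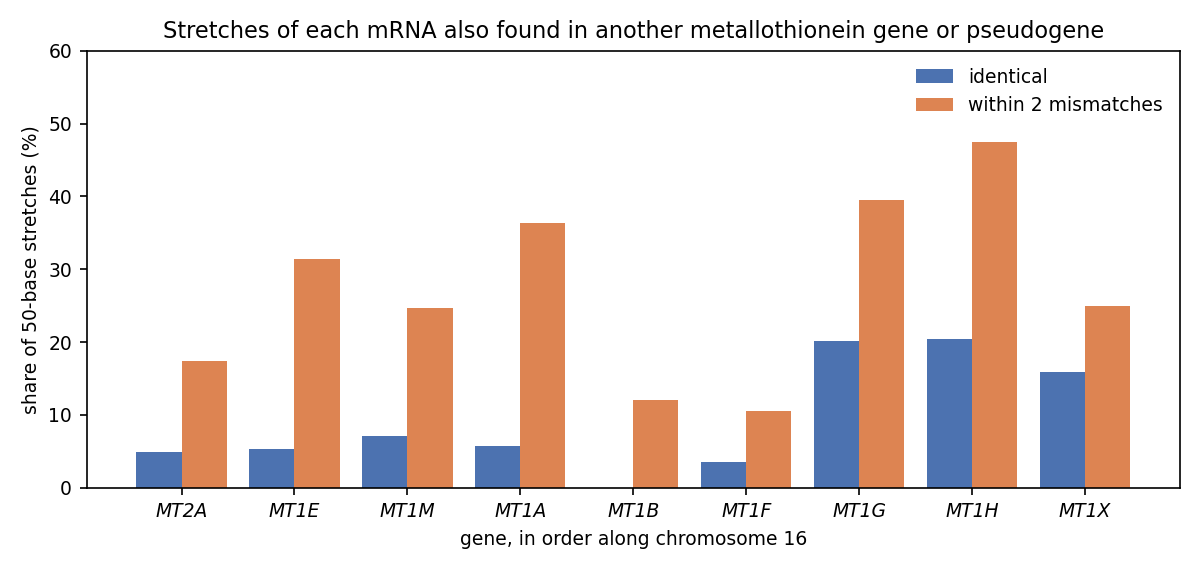
Share of all 50-base stretches of each mRNA (y axis, percent) that occur in another metallothionein gene or pseudogene of GENCODE release 29, unchanged or with at most 2 mismatches. MT1G and MT1H share the most, 20.2% and 20.4% unchanged, and MT1B shares none unchanged with a gene named as a metallothionein.

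TPM are shares of a fixed total, and the median gene tested had a log2 difference of -0.50. After scaling by the median of ratios that median was 0.00, and MT2A, MT1E, MT1X, MT1F and MT1M had log2 differences of 2.04, 3.37, 4.25, 4.69 and 8.05. All 5 were called higher there too, as were 38.0% of genes tested, with 35.8% called lower. Quantile normalization gives the top gene of every library the same value, so MT2A was at 0.00 and was not called by construction. MT1E, MT1X, MT1F and MT1M stayed called higher under it, at 2.35, 3.39, 4.50 and 7.82, with 31.4% of genes tested called higher and 39.9% called lower. In the lists below a gene is said to have risen or fallen only if it was called with the same sign in all 3 scalings, as 13.5% of genes were for higher and 31.2% for lower.

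Among regulators of metallothionein transcription and of the NRF2 pathway, MTF1 and NFE2L2 were higher in ES-Cu. Of 7 such genes, all tested, 2 were called higher and 4 lower as deposited, beside 13.6% and 70.0% of all genes tested. Their median log2 difference was -0.37, beside -0.50 for all genes tested. In all 3 scalings 2 rose and 0 fell, beside 13.5% and 31.2% of all genes tested. MTF1, the metal-sensing factor itself, had 24.95, 20.5 and 23.0 TPM in ES-Cu, against 11.5, 11.2 and 10.6 TPM in control. The groups did not overlap, and MTF1 rose (log2 difference 0.97, SE 0.0813, limma adjusted p = 7.00e-07; 1.49 after median scaling). NFE2L2, which encodes the oxidative stress factor NRF2, also rose (94.0 ± 3.51 TPM in ES-Cu and 72.4 ± 0.705 TPM in control, log2 difference 0.37). HSF1, the heat shock factor, had 25.9 ± 4.81 TPM in ES-Cu and 35.8 ± 1.99 TPM in control, and its sign changed after median scaling. The glucocorticoid receptor gene NR3C1 and the general factors USF1 and SP1 did the same, at -0.42, -0.37 and -0.42 as deposited and 0.11, 0.17 and 0.12 after median scaling. None of these genes, HSF1 included, was called after median scaling. KEAP1, the inhibitor of NRF2, was not called as deposited (log2 difference 0.11, limma adjusted p = 0.0694). It was called higher in the other scalings, and also as deposited without ES-Cu replicate 3 (0.15, limma adjusted p = 0.0295).

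Of 8 other genes reported as MTF1 targets, some of them in mouse, 5 were tested. As deposited 2 were called higher and 3 lower, beside 13.6% and 70.0% of all genes tested, with a median log2 difference of -0.36, beside -0.50 for all genes. In all 3 scalings 2 rose and 1 fell, beside 13.5% and 31.2% of all genes. SLC30A1, the zinc exporter of the cell surface, had 52.0, 50.7 and 50.2 TPM in ES-Cu, against 8.47, 8.12 and 6.74 TPM in control. The ES-Cu libraries lay close together and well clear of control, and SLC30A1 rose (log2 difference 2.57, SE 0.0801, limma adjusted p = 6.31e-10). GCLC, a subunit of the first enzyme of glutathione synthesis, rose to 49.1 ± 1.94 TPM in ES-Cu, against 34.6 ± 2.43 TPM in control. The selenoprotein gene SELENOH fell, at 50.3 ± 1.97 TPM in ES-Cu and 84.9 ± 2.89 TPM in control. The zinc importer gene SLC39A10, at 6.85 ± 0.232 TPM in ES-Cu and 9.14 ± 1.10 TPM in control, and the growth factor gene PGF, at 5.83 ± 0.959 and 9.24 ± 1.01 TPM, were not called with the same sign in all scalings. SLC30A2, SLC30A10 and SLC40A1 were at or below 0.11 TPM in every library.

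Of 7 genes that carry copper into, within and out of the cell, all tested, 1 was called higher and 6 lower as deposited, beside 13.6% and 70.0% of all genes tested. In all 3 scalings 1 rose and 2 fell, beside 13.5% and 31.2% of all genes. These counts are near the shares over all genes, as is the median log2 difference of -0.38, beside -0.50, and nothing is read from them about copper handling as a group. SLC31A2, a relative of the copper importer, rose to 22.6 ± 2.56 TPM in ES-Cu, against 15.3 ± 0.959 TPM in control. CCS, which loads copper into superoxide dismutase, fell to 42.1 ± 2.91 TPM in ES-Cu, against 83.7 ± 3.39 TPM in control. ATP7B, a copper exporter, was also lower (log2 difference -1.12, and -0.77 after median scaling). ATOX1, the copper chaperone of the exporters, was abundant in both groups, at 333 ± 18.3 TPM in ES-Cu and 385 ± 18.0 TPM in control, and its sign changed with the scaling, as did those of SLC31A1 and ATP7A. COX17, the mitochondrial copper chaperone, had 173 ± 17.7 TPM in ES-Cu and 286 ± 2.08 TPM in control and was not called after median scaling.

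**Figure D5:**
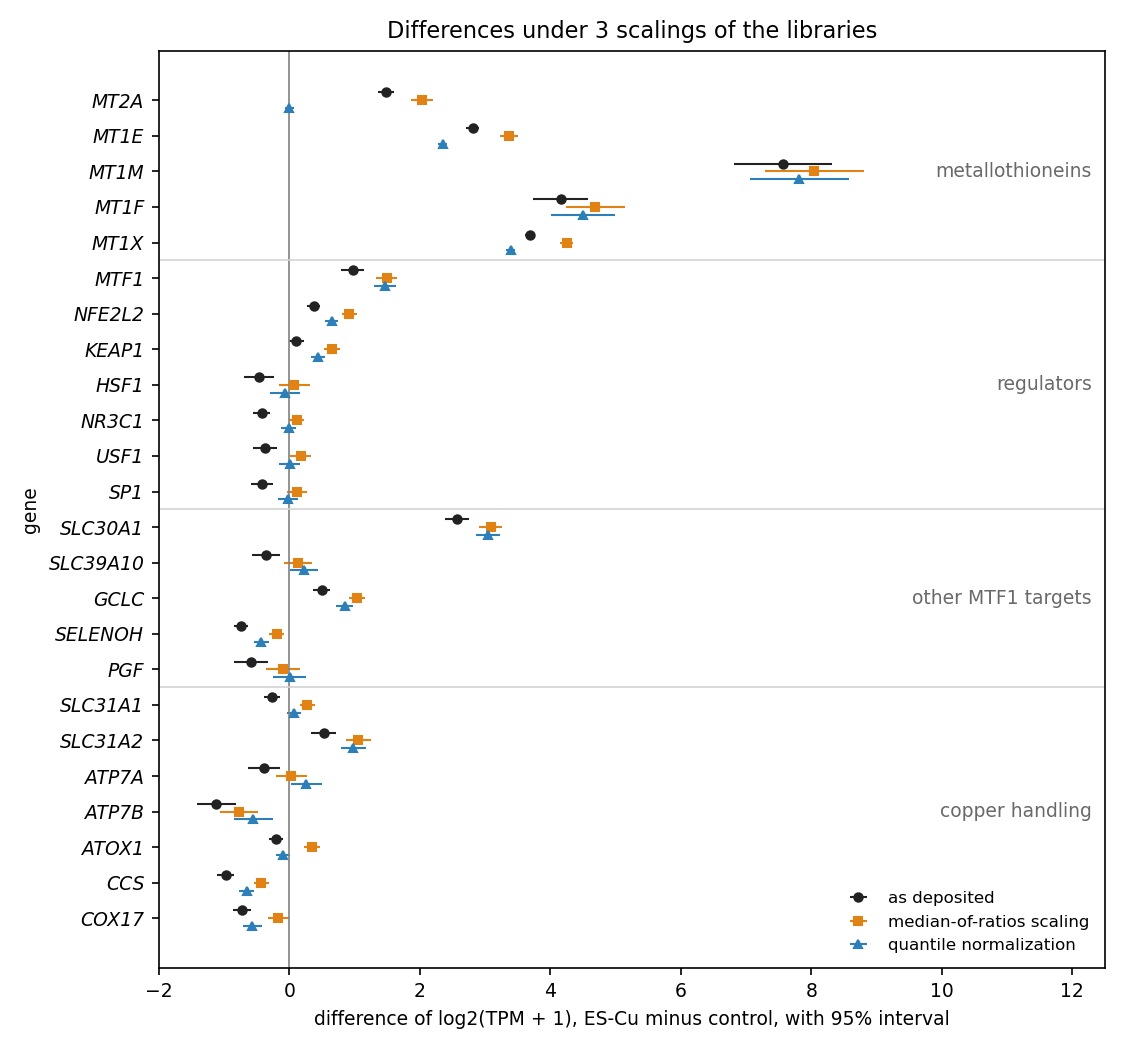
Difference of log2(TPM + 1), ES-Cu minus control, with its 95% interval (x axis) for the 5 metallothioneins with a control signal and for the tested regulators, other MTF1 targets and copper handling genes, under the deposited scale, median-of-ratios scaling and quantile normalization. MT1E, MT1M, MT1F, MT1X and SLC30A1 lie above 2 in each scaling, MT2A is at 0 under quantile normalization only, and most copper handling genes lie within 1 of 0.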

How the data were processed

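Total RNA of CAL-27 cells gave single-end reads (50 bases, BGISEQ500), per the labels' protocols. The deposited values are TPM made by the authors for each library, with 2 decimals. The submitters' processing notes name HISAT and Bowtie2, with no version, and GRCm38.p6, a mouse build, although the table lists human genes. The annotation was not given in the sources used here.

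A gene was tested where its 6 libraries averaged 1 TPM or more. The test was that of limma (version 3.58.1, R 4.3.3) on log2(TPM + 1) (mean-variance trend, empirical Bayes, two-sided, Benjamini-Hochberg, threshold 0.05), which understates changes of low genes. The code was tested on simulated data. Shares were compared with exact permutation tests (scipy 1.17.1). The naming rule took all 9 members, every gene of 3 lists (regulators, other MTF1 targets, copper handling) and the 5 non-members most correlated with the sum, of which 1 is not reported here. Members and lists were chosen with earlier results of these data known. Alternatives were other pseudocounts (0.5 and 0.1), filters (none, 5 TPM), scalings, no trend, each library left out, and a replicate block. Promoters came from RefSeq and transcripts from GENCODE release 29. No protein sequences were used here.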

Additional observations from a re-analysis of the deposited data

How the results depend on the processing

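MT2A, MT1E, MT1X, MT1F and MT1M, the members with a control signal, were called higher under every alternative run, except MT2A under quantile normalization, where its highest rank fixes its value. As deposited 13.6% of all genes tested were called higher. With no filter, MT1A was tested and not called (limma adjusted p = 0.283). The log2 ratio of the summed TPM was 2.56 after median scaling, 0.84 under quantile normalization, 2.09 after rescaling without the members, and 1.97 to 2.05 with libraries left out in turn. Genes called higher and lower over the whole table numbered 1628 and 8351 as deposited, 4532 and 4266 after median scaling and 3749 and 4756 under quantile normalization. Genes of the 3 lists called higher and lower numbered 5 and 13 as deposited and 8 and 3 after median scaling, and 4 were called lower under quantile normalization. Signs turned after median scaling for ATOX1 (0.35), ATP7A (0.031), HSF1 (0.077), NR3C1 (0.11), SLC31A1 (0.28), SLC39A10 (0.13), SP1 (0.12) and USF1 (0.17). Of these, only ATOX1 and SLC31A1 were called higher there. Under quantile normalization signs turned for ATP7A (0.26), PGF (0.0047), SLC31A1 (0.073), SLC39A10 (0.23) and USF1 (0.0039), and only ATP7A was called higher there. The median log2 difference of all genes tested moved from -0.50 as deposited to 0.00 after median scaling and -0.07 under quantile normalization. What lay behind that shift was not tested. Whether replicate numbers pair the libraries is not given in the labels. Correlations of deviations were 0.0206, -0.0337 and 0.0107 for libraries of the same number and -0.058 to 0.0431 for the others. Pairing was thus not seen, but so few libraries cannot show its absence. The replicate block gave 1614 genes higher and 8343 lower, with all 5 of these members called higher. Depth is unknown, so no limit of detection is given for the genes listed at 0.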

Other observations

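Among 8565 genes outside the family that were called and reached a mean of 5 TPM in a group, those whose log2 values over the 6 libraries were most like the summed metallothionein level included PDRG1, MAP2K3, GADD45G and SPHK1, with Pearson's r of 0.9992, 0.9991, 0.9991 and 0.9986. PDRG1 had 36.9 ± 0.686 TPM in ES-Cu and 18.7 ± 0.0656 TPM in control. MAP2K3, a kinase that activates p38, had 132 ± 1.31 TPM in ES-Cu and 76.6 ± 1.95 TPM in control. GADD45G, a stress-induced gene, had 64.7 ± 1.76 TPM in ES-Cu and 1.94 ± 0.357 TPM in control. SPHK1, which makes sphingosine 1-phosphate, had 41.3 ± 3.17 TPM in ES-Cu and 13.4 ± 0.0764 TPM in control. The 6 libraries form 2 groups, so r mainly reads the difference between them, and 299 genes reached at least 0.99. The values are a description with no test.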
